A study of Mus musculus with 6 samples.

Results

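The type I interferon response genes are a group of 44 genes that cells switch on when type I interferon binds its receptor, together with the chains of that receptor. They were chosen by name, as a list of known interferon-stimulated genes, but with earlier results of these data known. Each transcript was matched to its gene symbol in the mouse GENCODE M21 annotation. All 44 were among the 35865 genes with a matched transcript. The group holds 2 receptor chains, 3 transcription factors, 5 nucleic acid sensors and 26 antiviral effectors. The other 8 genes were grouped as modifiers, mostly of ubiquitin, ISG15 or ADP-ribose pathways. They were measured in RNA from macrophages sorted out of digested mouse hearts, on the C57BL/6J strain. The macrophages derived from donor haematopoietic progenitors that were either knocked out for the DNA demethylase gene Tet2 (Tet2 KO, 3 libraries) or wild type for it (Tet2 WT, 3 libraries). Neither the part of Tet2 that was removed, nor the age of the mice, nor the markers used for the sort is stated in the sources used here. Nothing in the labels ties the 3 libraries of either genotype to different mice. The p-values below therefore rest on library-to-library spread, part of which could be technical.

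Type I interferons are secreted by cells that sense foreign or misplaced nucleic acid, and they signal through a receptor built from Ifnar1 and Ifnar2. The receptor's kinases activate Stat2, which joins Irf9 in the complex ISGF3 to bind interferon-stimulated response elements in the promoters of target genes. The targets include enzymes that degrade or edit RNA, proteins that block translation of foreign RNA, more sensors, and Irf7, a transcription factor that in turn drives interferon genes. Macrophages express the receptor and keep many of these targets at a low level without infection.

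The libraries held 37349505 to 55771087 estimated counts each. Macrophage identity was present in all 6, with Adgre1 (F4/80) at 666 to 1446 and Csf1r, the receptor for macrophage colony-stimulating factor, at 1482 to 3528 CPM (counts per 1e+06 of a library's total, scaled between libraries by TMM, which takes most genes as level). Tet2 itself stood at 81.2, 82.6 and 78.2 CPM in Tet2 KO against 57.5, 76.1 and 60.8 CPM in Tet2 WT (log2 fold change 0.32 ± 0.14 SE, edgeR adjusted p = 0.159). Reads from outside the removed part would still be counted, so this does not check the labels. Tet2 KO replicate 2 stood apart from the other knockout libraries in part of the interferon genes.

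The response element has a core of GAAA, any 2 bases, and GAAA again, and these letters were searched on both strands from 250 bases before to 50 bases after the RefSeq start site (GRCm38.p6). A window was found for 34 of the 44 genes, and 16 of them (47.1%) held the letters, against 3.99% of all 27025 genes with a window. The stretches below are examples from effectors and from Stat2 whose matches lie before the start site, shown so that the copies can be compared letter by letter. Each is written 5′ to 3′ on the gene's own strand, and capitals mark the matched letters, where a match on the opposite strand reads TTTC, 2 bases, TTTC and overlapping matches run together.
Isg15 (chr4:156200855-156200916, minus strand): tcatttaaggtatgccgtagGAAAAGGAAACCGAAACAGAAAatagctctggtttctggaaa
Ifit1 (chr19:34640765-34640833, plus strand): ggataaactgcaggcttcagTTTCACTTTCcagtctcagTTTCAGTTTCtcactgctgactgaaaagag
Ifit3 (chr19:34583353-34583436, plus strand): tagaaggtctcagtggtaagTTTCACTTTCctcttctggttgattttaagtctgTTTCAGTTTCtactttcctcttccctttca
Ifit3b (chr19:34607749-34607832, plus strand): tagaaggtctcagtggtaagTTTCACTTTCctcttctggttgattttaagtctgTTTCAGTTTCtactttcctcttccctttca
Oas1a (chr5:120907510-120907565, minus strand): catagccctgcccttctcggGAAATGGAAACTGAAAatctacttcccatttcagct
Oas1g (chr5:120887596-120887651, minus strand): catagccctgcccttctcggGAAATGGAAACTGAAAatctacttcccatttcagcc
Oas3 (chr5:120777705-120777754, minus strand): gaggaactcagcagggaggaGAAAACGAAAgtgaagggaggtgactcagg
Bst2 (chr8:71537567-71537622, minus strand): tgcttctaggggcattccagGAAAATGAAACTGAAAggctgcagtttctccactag
Phf11b (chr14:59341351-59341400, minus strand): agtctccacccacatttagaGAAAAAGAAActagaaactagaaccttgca
Stat2 (chr10:128270256-128270305, plus strand): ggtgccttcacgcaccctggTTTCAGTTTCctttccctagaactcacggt

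Isg15 held 3 overlapping matches, at -78 to -66 from the start site. Ifit3 and Ifit3b, neighbouring copies on chromosome 19, had the same 84 bases there, and the stretches of Oas1a and Oas1g differed at 1 of 56 positions. By role, the letters were found in 11 of 21 effectors with a window, 3 of 3 sensors (Ddx58, Ifih1 and Eif2ak2), 1 of 3 transcription factors (Stat2), 1 of 5 modifiers and 0 of 2 receptor chains. No match says only that these letters are not in this window, as for Irf7.

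Levels differed widely between the genes. On the TPM scale, which is per transcript length, 7 genes were at or above a mean of 100 TPM over the 6 libraries, 31 lay between 10 and 100 TPM and 6 were below 10 TPM. Ifi27l2a, a small interferon-induced membrane protein, led with 1734 ± 124 TPM in Tet2 KO against 1606 ± 202 TPM in Tet2 WT (mean ± SD, n = 3 each), far above the next gene. Bst2 (tetherin, which holds budding virus at the cell surface), Ifnar2 and the nuclear body gene Sp100 followed with means of 206.5, 188.3 and 181.7 TPM, and these neighbours overlapped within their spread. At the other end were Oas3 at 3.50 TPM and Ifi44l, which had 13 estimated counts in Tet2 WT replicate 3 and 0 in every other library, where 3 counts would be 0.0541 to 0.0809 CPM. Ifi44l did not pass the filter on low counts and is the 1 gene of the group that was not tested.

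All 43 genes tested had a positive log2 fold change in Tet2 KO against Tet2 WT with TMM scaling of the counts, although Ifih1 and Slfn5 were slightly below 0 on a TPM scale or without Tet2 KO replicate 2. Of the 43, 27 rose and 0 fell at an edgeR quasi-likelihood adjusted p (Benjamini-Hochberg) under 0.05, the threshold for a call, where 6.11% of all 16386 genes tested were called higher and 10.1% lower (16.2% in either direction). Relative to the macrophage genes Adgre1 and Csf1r, described further on, 0 of the 43 were called higher. The median log2 fold change with TMM scaling was 0.66, with a range of 0.08 to 1.46, against a median of 0.00 over all genes tested. In 35 of the 43, every Tet2 KO library was above every Tet2 WT library, a pattern that 16.4% of all genes showed (18.1% showed the reverse, as did 0 of the 43). Markers of the sorted cells moved too: fibroblast markers summed to 690 to 1307 CPM in Tet2 KO and 6818 to 12270 CPM in Tet2 WT, and pan-macrophage markers to 31670 to 37590 and 20360 to 27820 CPM (CPM of library totals); their part in the result was not tested. Since this is RNA from a sorted population, more cells that express these genes and more RNA per cell cannot be told apart. The number called was 13 without Tet2 WT replicate 1, where 2.07% of all genes were called higher, and 20 to 24 with any other single library left out. The 13 genes called in all 6 of those fits were Irf7, Ddx58, Dhx58, Oas1a, Oas1g, Oas2, Oasl2, Ifit3, Ifi44, Xaf1, Rtp4, Phf11b and Trim30a. With limma on log2(TPM + 1) 14 genes were called, and Ddx58 was not among them (limma adjusted p = 0.235; edgeR 0.0525 on length-scaled TPM counts). The other calls lost there were those of Ifnar1, Irf9, Eif2ak2, Ifit1, Oasl1, Oas3, Adar, Sp100, Bst2, Ifi35, Parp9 and Dtx3l (limma adjusted p = 0.052 to 0.24).

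**Figure D1:**
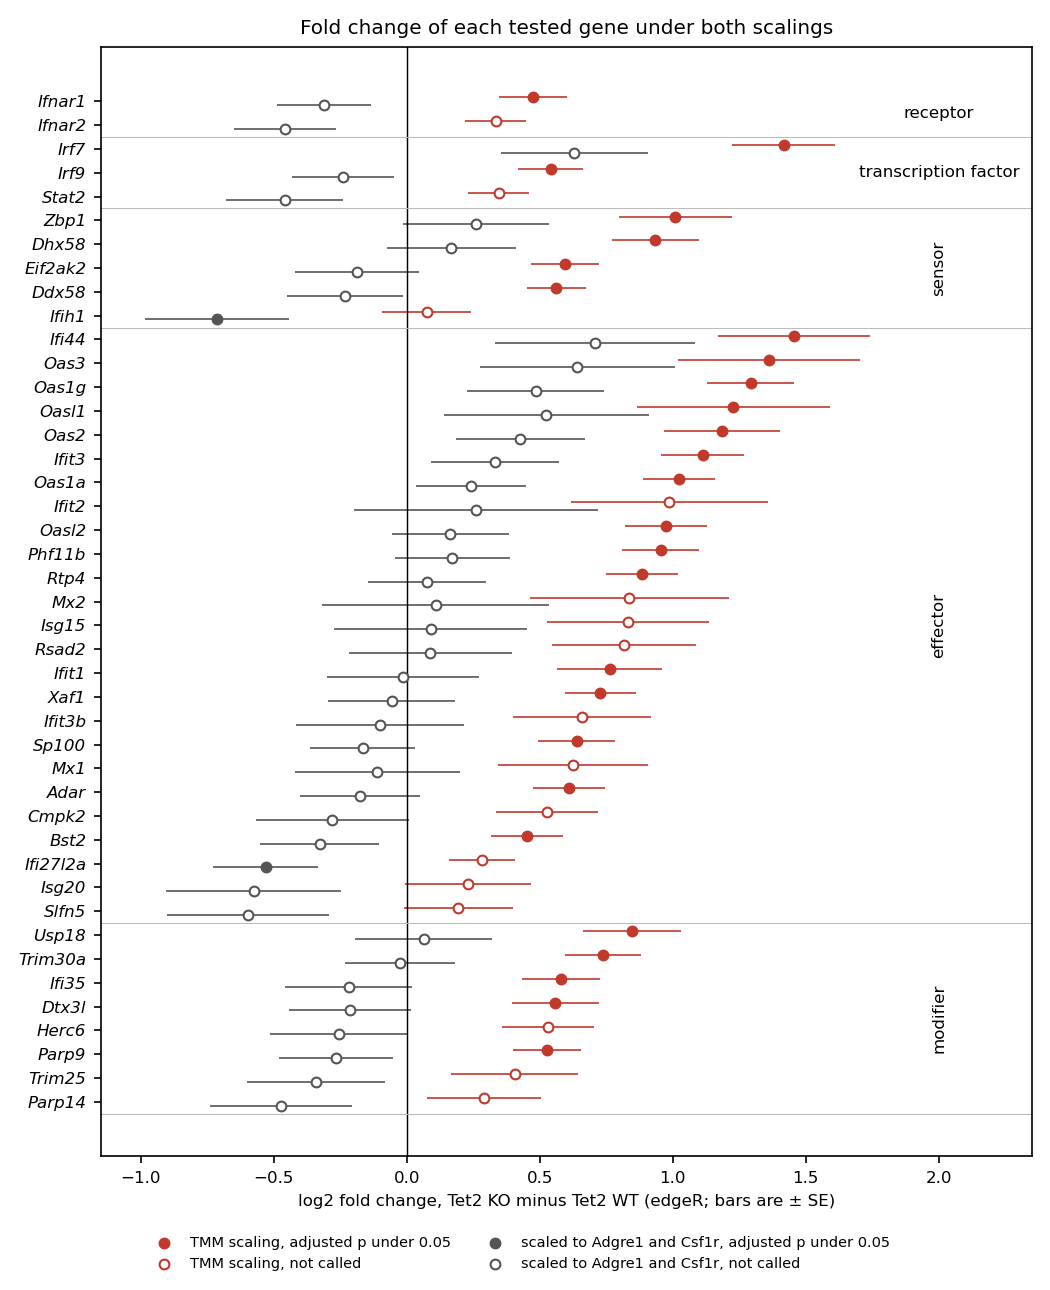
Each tested gene's log2 fold change in Tet2 KO against Tet2 WT (x axis) with its standard error, under TMM scaling (red) and with libraries scaled to Adgre1 and Csf1r (grey); filled points had an edgeR adjusted p under 0.05. Red points all lie above 0 and reach 1.46 for Ifi44, while grey points lie on both sides of 0, from -0.71 for Ifih1 to 0.71 for Ifi44.

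Receptor chains had the lowest median difference of the 5 roles. Ifnar1, the chain that binds the kinase Tyk2, was at 283, 251 and 289 CPM in Tet2 KO against 180.2, 217 and 195 CPM in Tet2 WT. Every knockout library was higher, and Ifnar1 rose by 0.47 ± 0.13 on the log2 scale (SE; edgeR adjusted p = 0.0319). It no longer passed when Tet2 KO replicate 1 was left out (edgeR adjusted p = 0.0785), nor without Tet2 KO replicate 3 (0.132), Tet2 WT replicate 1 (0.104) or Tet2 WT replicate 3 (0.0925). Ifnar2, the chain that binds interferon most tightly, was at 226.5, 206.5 and 205 CPM in Tet2 KO against 167, 172 and 167 CPM in Tet2 WT. Its libraries did not overlap either, but at 0.33 ± 0.11 on the log2 scale it was not called (edgeR adjusted p = 0.0772; 0.0323 with DESeq2).

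Among the transcription factors Irf7 (GRCm38 chr7:141262706-141266481, minus strand, protein coding) had a much larger fold change than the ISGF3 subunits Irf9 and Stat2. Irf7 was at 67.9, 110 and 78.7 CPM in Tet2 KO against 34.8, 27.4 and 34.0 CPM in Tet2 WT. Its lowest knockout library was above its highest wild-type library by a wide margin, with replicate 2 the highest, and it rose by 1.42 ± 0.19 on the log2 scale (edgeR adjusted p = 0.00103). With Tet2 KO replicate 2 left out, Irf7 still rose by 1.20 (edgeR adjusted p = 0.00238). Irf9, the DNA-binding subunit of ISGF3, was at 139.8, 127 and 134.5 CPM in Tet2 KO against 82.3, 97.8 and 95.8 CPM in Tet2 WT. The 3 knockout libraries lay close together above the wild types, and Irf9 rose by 0.54 ± 0.12 (edgeR adjusted p = 0.0145). Leaving out Tet2 KO replicate 3 ended this call (edgeR adjusted p = 0.0605), as did leaving out Tet2 WT replicate 1 (0.0597). Stat2, the activating subunit, was at 77.6, 77.8 and 81.3 CPM in Tet2 KO against 66.7, 59.0 and 60.7 CPM in Tet2 WT. The groups did not overlap, yet the difference of 0.35 ± 0.12 on the log2 scale was not called (edgeR adjusted p = 0.0729; 0.0422 with DESeq2).

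**Figure D2:**
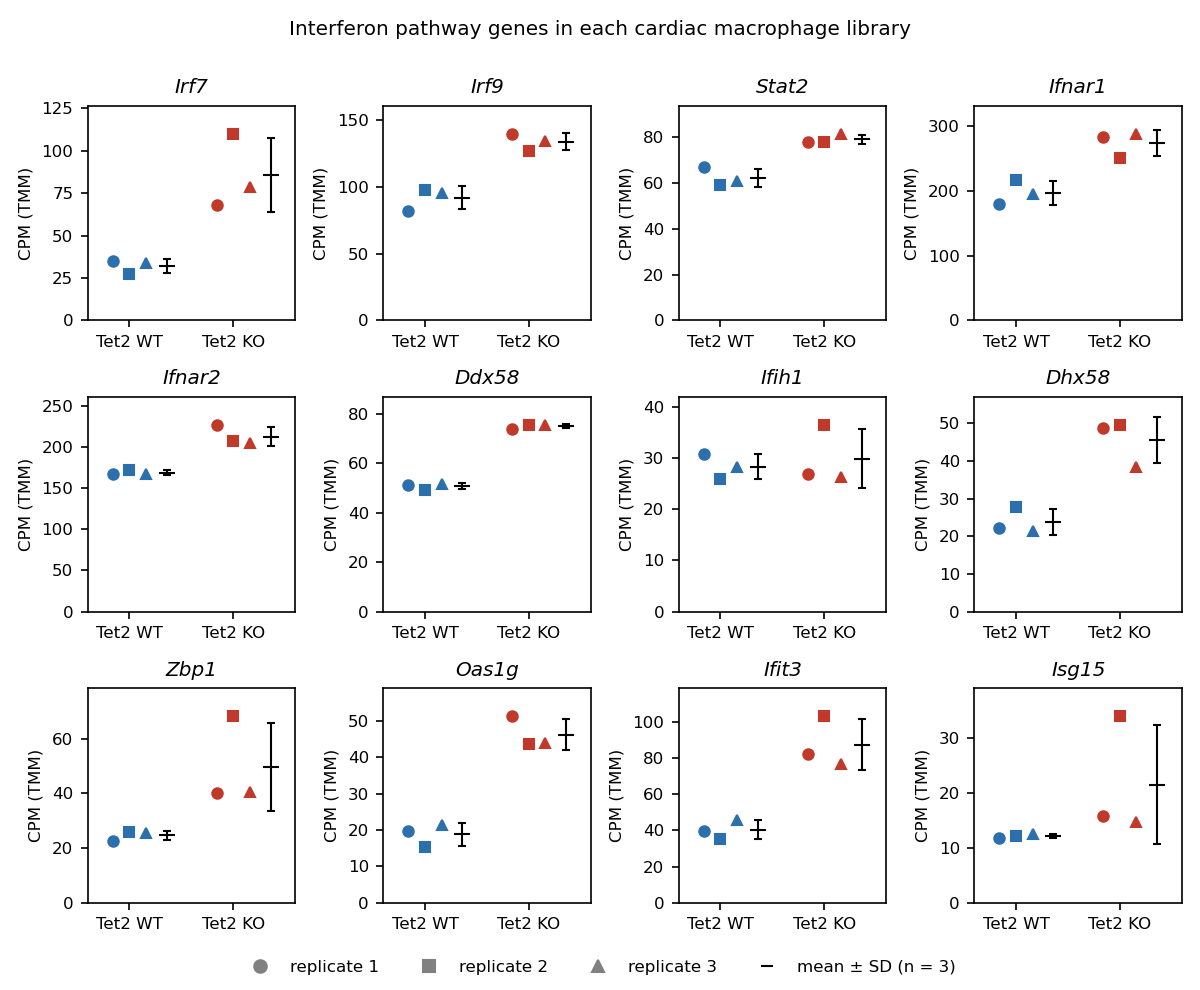
Level in CPM (TMM; y axes start at 0) of 12 genes in each Tet2 WT (blue) and Tet2 KO (red) library, with symbols for the replicate number and bars for mean ± SD (n = 3). Ddx58 and Ifnar2 sit in tight groups that do not overlap, Ifih1 overlaps, and for Isg15 and Zbp1 replicate 2 of Tet2 KO is far above the other knockout libraries.

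Of the 5 sensors, 4 rose and 1, Ifih1, did not pass. Ddx58 (RIG-I, which detects viral RNA ends in the cytoplasm) was at 74.0, 75.4 and 75.5 CPM in Tet2 KO against 51.4, 49.3 and 51.7 CPM in Tet2 WT. The libraries of each genotype differed by little, and Ddx58 rose by 0.56 ± 0.11 (edgeR adjusted p = 0.00808). Ifih1 (MDA5, its relative for long double-stranded RNA) was at 26.8, 36.5 and 26.2 CPM in Tet2 KO against 30.8, 25.9 and 28.3 CPM in Tet2 WT. These groups overlapped, and their difference of 0.08 ± 0.17 on the log2 scale (edgeR adjusted p = 0.823) was -0.09 without Tet2 KO replicate 2. Dhx58 (LGP2, a helicase that modulates both) was at 48.7, 49.5 and 38.5 CPM in Tet2 KO against 22.2, 27.8 and 21.4 CPM in Tet2 WT, and rose by 0.93 ± 0.16 (edgeR adjusted p = 0.00425). The third RIG-I-like helicase therefore had the largest difference of the family, and all its knockout libraries were above the wild types.

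Zbp1, a sensor of Z-form nucleic acid that can trigger cell death, was at 40.0, 68.2 and 40.6 CPM in Tet2 KO against 22.7, 25.8 and 25.4 CPM in Tet2 WT. Replicate 2 of Tet2 KO was the highest by far, but replicates 1 and 3 were also above every wild-type library. Zbp1 rose by 1.01 ± 0.21 (edgeR adjusted p = 0.0108), and by 0.71 without Tet2 KO replicate 2 (edgeR adjusted p = 0.0111); the call was lost without Tet2 WT replicate 1 (edgeR adjusted p = 0.0579). Eif2ak2 (PKR), a kinase that stops translation when it binds double-stranded RNA, was at 43.4, 47.1 and 42.2 CPM in Tet2 KO against 28.6, 31.3 and 28.0 CPM in Tet2 WT. Its groups were tight and apart, with a rise of 0.60 ± 0.13 (edgeR adjusted p = 0.012) that was not called without Tet2 WT replicate 1 (edgeR adjusted p = 0.0541).

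Effectors of the OAS family, which make the 2-5A signal that activates RNase L or relate to those enzymes, rose as a whole: 6 of 6 were called, with a median log2 fold change of 1.21. Oas1g was at 51.3, 43.6 and 43.9 CPM in Tet2 KO against 19.9, 15.4 and 21.4 CPM in Tet2 WT (1.29 ± 0.16, edgeR adjusted p = 0.000683). Oas1a was at 135.6, 124.6 and 120.4 CPM in Tet2 KO against 55.8, 59.1 and 72.4 CPM in Tet2 WT (1.02 ± 0.14, edgeR adjusted p = 0.000924). Both copies were therefore well apart between genotypes, although 68.8% of the 31-base words of Oas1a and 55.1% of those of Oas1g also occur in other genes, mostly in each other, so how reads were divided between them is uncertain. Oas2 was at 92.4, 145.5 and 126.4 CPM in Tet2 KO against 42.4, 49.1 and 68.9 CPM in Tet2 WT (1.18 ± 0.22, edgeR adjusted p = 0.00603). Oasl2 was at 187, 151 and 160.5 CPM in Tet2 KO against 88.8, 69.4 and 95.7 CPM in Tet2 WT (0.98 ± 0.15, edgeR adjusted p = 0.00237). For these genes too no wild-type library reached a knockout library. Oas3 and Oasl1 rose by 1.36 ± 0.34 and 1.23 ± 0.36 (edgeR adjusted p = 0.0244 and 0.0487) with wide spread, and each lost its call without Tet2 KO replicate 2 (0.0647 and 0.121, at log2 fold changes of 0.96 and 0.72), Tet2 WT replicate 1 (0.101 and 0.174) or Tet2 WT replicate 2 (0.0639 and 0.0891), Oas3 also without Tet2 KO replicate 3 (0.0531), and Oasl1 also without Tet2 KO replicate 1 (0.0749) or Tet2 WT replicate 3 (0.0908). Oas2, Oas3, Oas1g and Oas1a are neighbours on chromosome 5 (GRCm38 chr5:120730333-120907521, 177 kb).

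In the IFIT family, whose proteins bind foreign RNA and block its translation, 2 of 4 rose. Ifit3 was at 82.2, 103 and 76.5 CPM in Tet2 KO against 39.8, 35.4 and 45.8 CPM in Tet2 WT, with no overlap (1.11 ± 0.16, edgeR adjusted p = 0.00125). It shares 61.8% of its 31-base words with Ifit3b, so the split between those copies is uncertain. Ifit3b, whose promoter stretch above has the same letters, overlapped between the genotypes (0.66 ± 0.26, edgeR adjusted p = 0.122). Ifit1 rose by 0.76 ± 0.20 (edgeR adjusted p = 0.0281), a call kept only without Tet2 KO replicate 3, and its adjusted p was 0.0552 to 0.0856 with any other library left out. Ifit2 was at 41.0, 128.7 and 58.3 CPM in Tet2 KO against 35.0, 39.7 and 40.5 CPM in Tet2 WT, which gave 0.99 ± 0.37 on the log2 scale and no call (edgeR adjusted p = 0.116). The value was 0.38 without Tet2 KO replicate 2 and 1.29 without Tet2 KO replicate 1, where Ifit2 was called (edgeR adjusted p = 0.0318). The Ifit genes lie together at chr19:34550694-34650009 (GRCm38). Neither GTPase of the MX family, which trap incoming viral particles, was called: Mx1 had a log2 fold change of 0.62 ± 0.28 and Mx2, annotated as a polymorphic pseudogene, one of 0.84 ± 0.38 (edgeR adjusted p = 0.184 and 0.176). Without Tet2 KO replicate 2 these were 0.32 for Mx1 and 0.22 for Mx2.

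Outside those families 7 of 13 effectors rose. Phf11b was at 124.5, 101.1 and 90.2 CPM in Tet2 KO against 52.0, 58.0 and 52.9 CPM in Tet2 WT (0.95 ± 0.15, edgeR adjusted p = 0.00195), but 62.9% of its 31-base words occur in other genes, chiefly Phf11a. Rtp4, a regulator of interferon signalling and antiviral protein, was at 133, 112 and 113 CPM in Tet2 KO against 68.4, 56.5 and 69.1 CPM in Tet2 WT (0.88 ± 0.14, edgeR adjusted p = 0.00208). Both genes had every knockout library above every wild-type library. Xaf1, which promotes apoptosis, was at 50.9, 50.8 and 42.0 CPM in Tet2 KO against 28.7, 28.3 and 29.7 CPM in Tet2 WT (0.73 ± 0.13, edgeR adjusted p = 0.00552). Ifi44 was low, at 8.87, 15.9 and 9.12 CPM in Tet2 KO against 3.91, 4.57 and 3.89 CPM in Tet2 WT, yet had the largest log2 fold change of the 43 genes (1.46 ± 0.29, edgeR adjusted p = 0.00761). Its value without Tet2 KO replicate 2 was 1.13 (edgeR adjusted p = 0.0198). Adar, which edits adenosine to inosine in double-stranded RNA, was at 69.3, 91.9 and 83.8 CPM in Tet2 KO against 53.5, 53.2 and 53.9 CPM in Tet2 WT. The wild-type libraries were nearly equal and all below the knockouts, and Adar rose by 0.61 ± 0.13 (edgeR adjusted p = 0.0131); the call was lost without Tet2 KO replicate 3 (0.056) or Tet2 WT replicate 1 (0.0581).

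Sp100 and Bst2 made up the rest of the effectors called. Sp100 rose by 0.64 ± 0.15 (edgeR adjusted p = 0.0158; 0.0547 with Tet2 KO replicate 3 left out, 0.0556 with Tet2 WT replicate 1 left out). Bst2 rose by 0.45 ± 0.14 (edgeR adjusted p = 0.0482) and lost its call with any 1 library left out (0.052 to 0.145). Isg15, Rsad2, Cmpk2, Ifi27l2a, Isg20 and Slfn5 were not called. Rsad2 (viperin, which makes a chain-terminating nucleotide) differed by 0.82 ± 0.27 on the log2 scale (edgeR adjusted p = 0.0753). It was called without Tet2 KO replicate 1 (edgeR adjusted p = 0.0311), while without Tet2 KO replicate 2 the value was 0.45 (0.169) and without Tet2 WT replicate 1 it was 0.70 (0.241). Isg15, the ubiquitin-like protein attached to targets during the response, was at 15.9, 34.0 and 14.7 CPM in Tet2 KO against 11.7, 12.1 and 12.5 CPM in Tet2 WT, so replicate 2 was far above the rest while replicates 1 and 3 were just above the wild types (0.83 ± 0.30, edgeR adjusted p = 0.1; 0.34 without that library). Ifi27l2a, the most abundant member, was at 396, 374 and 403 CPM in Tet2 KO against 357, 296 and 312 CPM in Tet2 WT, which gave 0.28 ± 0.13 on the log2 scale (edgeR adjusted p = 0.17) although the groups did not overlap.

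Of 8 modifiers 5 rose. Trim30a, a ubiquitin ligase that restrains inflammatory signalling, was at 114.3, 147 and 131 CPM in Tet2 KO against 68.8, 86.5 and 80.0 CPM in Tet2 WT (0.74 ± 0.14, edgeR adjusted p = 0.00709). Usp18, the protease that removes Isg15 and dampens the receptor, was at 54.6, 56.6 and 42.6 CPM in Tet2 KO against 27.3, 23.2 and 35.0 CPM in Tet2 WT (0.85 ± 0.18, edgeR adjusted p = 0.0122; 0.0599 without Tet2 WT replicate 1). In both genes all knockout libraries were above all wild types. Ifi35 was at 73.0, 64.5 and 54.6 CPM in Tet2 KO against 44.4, 37.9 and 46.2 CPM in Tet2 WT (0.58 ± 0.15, edgeR adjusted p = 0.0253), and lost its call without Tet2 KO replicate 1 (0.0714), Tet2 WT replicate 1 (0.0754) or Tet2 WT replicate 2 (0.0748). Parp9, an ADP-ribosyltransferase, was at 67.5, 73.7 and 83.3 CPM in Tet2 KO against 50.4, 49.9 and 55.3 CPM in Tet2 WT (0.53 ± 0.13, edgeR adjusted p = 0.02), and lost it without Tet2 KO replicate 3 (0.0973), Tet2 WT replicate 1 (0.0825) or Tet2 WT replicate 2 (0.0577). Its ligase partner Dtx3l, which overlaps it on the opposite strand of chromosome 16, rose by 0.56 ± 0.16 (edgeR adjusted p = 0.0456), a call that was kept only without Tet2 KO replicate 1 (0.093 to 0.163 otherwise). Use of strand in the counting is not stated, so reads where Parp9 and Dtx3l overlap cannot be told apart. Herc6, a ligase that attaches Isg15, was not called (edgeR adjusted p = 0.0689; 0.044 without Tet2 KO replicate 3), and neither were Trim25 and Parp14 (0.313 and 0.434). The log2 fold changes of Trim25 and Parp14 were 0.41 and 0.29, and 0.17 and 0.022 without Tet2 KO replicate 2.

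Knockout libraries were not alike in these genes. Tet2 KO replicate 2 was the highest of the 3 for 27 of the 43 genes, against 35.6% of all genes tested. It reached at least 1.5 times the mean of the other knockout libraries for 14 of the 43, against 16.6% of all genes, while replicates 1 and 3 did so for 0 of the 43. The 14 were Mx2 and Ifit2 (2.60 and 2.59 times), Oasl1 (2.27), Isg15 (2.22), Oas3 (1.98), Rsad2 (1.89), Ifi44 (1.77), Mx1 (1.72), Zbp1 (1.69), Parp14 (1.62), Slfn5 (1.6), Trim25 (1.54), Ifit1 (1.53) and Irf7 (1.5). Only 6 of these 14 were called, with a median standard error of 0.277, against 21 of the other 29 genes, with a median standard error of 0.145. The 14 were picked by their spread between knockout libraries, so a larger standard error was built into that choice. Genes that were even across the knockouts included Ddx58, Stat2, Irf9, Ifi27l2a, Oas1a and Oas1g, where the ratio was 0.915 to 1.01. Without Tet2 KO replicate 2 the number called was 22, with a median log2 fold change of 0.54. Among the wild types, replicate 3 was the highest of the 3 for 23 of the 43 genes, against 29.5% of all genes, but reached 1.5 times the mean of the others for 3 of the 43 (7.07% of all genes), and the other two did so for 0.

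**Figure D3:**
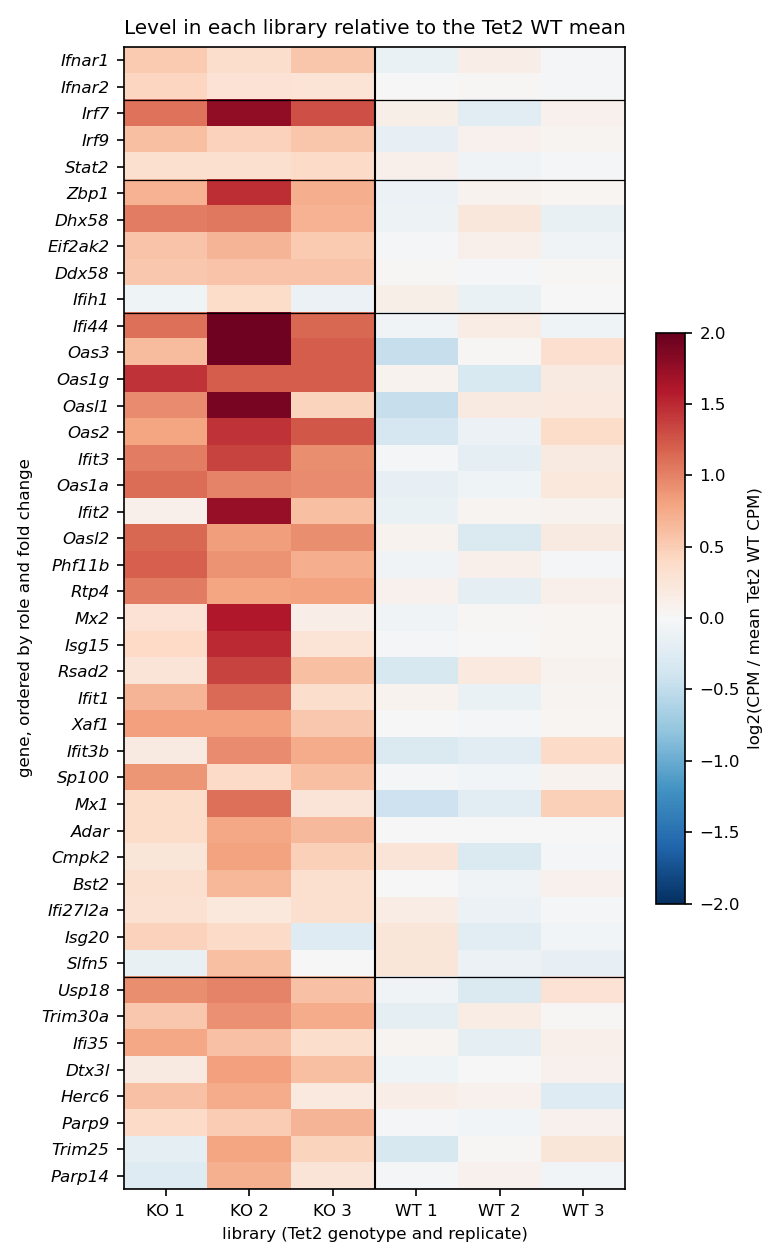
Level of each tested gene in each library as log2 of its CPM over the Tet2 WT mean (colour, from blue below to red above), ordered by role and fold change. The column of Tet2 KO replicate 2 is darkest for Ifi44, Oas3, Oasl1, Irf7, Ifit2 and Mx2, while Oas1g and Phf11b are highest in Tet2 KO replicate 1.

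Relative to the macrophage genes Adgre1 and Csf1r no gene of the group was called higher. Adgre1 rose by 0.77 ± 0.16 and Csf1r by 0.78 ± 0.18 with TMM scaling (edgeR adjusted p = 0.0112 and 0.0167; 0.0594 and 0.0834 without Tet2 KO replicate 3), from 666, 912 and 763 to 1389, 1157 and 1446 CPM and from 1482, 2130 and 2104 to 3289, 2961 and 3528 CPM. When each library was scaled to the geometric mean of both, the median of all genes moved by -0.79 on the log2 scale, and 0.104% of all genes were called higher and 50.0% lower (50.1% in either direction). Under that scaling 0 of the 43 interferon genes were called higher and 2 lower by edgeR, 18 had a positive and 25 a negative log2 fold change, and the median was -0.10, against -0.79 over all genes. Levels did not overlap upward for 1 gene (Ifi44) and downward for 5 (Irf9, Stat2, Ifi27l2a, Ifnar1 and Ifnar2), where 0.354% and 64.7% of all genes showed these patterns. So the members' median lay between the macrophage genes, which this scaling holds level, and the median gene, while 18 members were above the macrophage genes without passing the test.

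The 2 genes called lower on this scale were Ifih1 (-0.71 ± 0.27, edgeR adjusted p = 0.0356) and Ifi27l2a (-0.53 ± 0.20, edgeR adjusted p = 0.0337). Ifih1 stood at 19.9, 31.2 and 18.4 macrophage-scaled CPM in Tet2 KO against 49.1, 29.4 and 35.3 in Tet2 WT, so the groups overlapped. Ifi27l2a stood at 293, 319.5 and 282 macrophage-scaled CPM in Tet2 KO against 568, 336 and 389 in Tet2 WT. Its groups were apart, with the highest value in Tet2 WT replicate 1. Both calls ended when Tet2 KO replicate 1 was left out (edgeR adjusted p = 0.109 and 0.0734), and likewise for Tet2 KO replicate 3 (0.165 and 0.123) and Tet2 WT replicate 1 (0.161 and 0.16), and that of Ifih1 also without Tet2 WT replicate 3 (0.0528). With the pan-macrophage reference neither was called (0.0672 and 0.113). Ifi44 had the highest value on this scale (0.71 ± 0.38, edgeR adjusted p = 0.117), followed by Oas3, Irf7 and Oasl1. Irf7 stood at 50.3, 94.0 and 55.2 macrophage-scaled CPM in Tet2 KO against 55.5, 31.1 and 42.4 in Tet2 WT, or 0.63 ± 0.28 on the log2 scale (edgeR adjusted p = 0.0665). Its groups overlapped through Tet2 WT replicate 1, and it was called without Tet2 KO replicate 1 (edgeR adjusted p = 0.0266), with the 16 pan-macrophage markers as the reference (0.0318), without a low-count filter (0.0237) and with a stricter one (0.0381), but stood at 0.30 without Tet2 KO replicate 2. All 6 OAS genes had positive values, with a median of 0.46, although Oasl1 was -0.12 without Tet2 KO replicate 2 and Oasl2 -0.04 without Tet2 WT replicate 2, and 0 of the 6 were called. Oas3 was called without Tet2 KO replicate 1 (edgeR adjusted p = 0.0492). Lower calls appeared without Tet2 KO replicate 2 for Trim25 (-0.70, edgeR adjusted p = 0.0297), Slfn5 (-0.98, 0.00952) and Parp14 (-0.86, 0.0112), and without Tet2 WT replicate 2 for Stat2 (-0.59, 0.0321) and Ifnar2 (-0.54, 0.0295).

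Effectors had the highest and receptor chains the lowest median on both scales. With TMM scaling the median log2 fold change was 0.83 for 25 effectors, 0.60 for 5 sensors, 0.54 for 3 transcription factors, 0.54 for 8 modifiers and 0.40 for 2 receptor chains. The shares called were 15 of 25, 4 of 5, 2 of 3, 5 of 8 and 1 of 2. On the Adgre1 and Csf1r scale the medians were 0.09, -0.19, -0.24, -0.24 and -0.38 in the same order. Differences between the roles were not tested, and each role spans a wide range: effectors ran from 0.19 (Slfn5) to 1.46 (Ifi44), sensors from 0.08 (Ifih1) to 1.01 (Zbp1) and transcription factors from 0.35 (Stat2) to 1.42 (Irf7). Genes with the response element letters in their promoter window were called in 10 of 16 cases (median 0.75) and those with a window but no match in 11 of 17 (median 0.58). Genes without a window, where the letters could not be searched, were called in 6 of 10 cases and had the highest median (0.84).

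Marker lists of several cell types moved with genotype, and their sums are given as CPM of library totals. Of the 12 fibroblast markers 12 were called lower, with Tet2 WT sums 8.77 times those of Tet2 KO on average. Of 16 pan-macrophage markers 11 were called higher and 0 lower. Within Tet2 KO, replicate 2 was the highest library for 27 of the 43 interferon genes. It had the lowest fibroblast sum (690 CPM) and also the lowest pan-macrophage sum (31670 CPM) of the knockouts. Within Tet2 WT, replicate 3 was the highest library for 23 of the 43. There the fibroblast sum was lowest in replicate 2 (6818 CPM). Plasmacytoid dendritic cells are strong interferon producers: of 8 of their markers 5 were tested, 0 were called higher and 1 lower, with sums of 176 to 184 CPM in Tet2 KO against 276.5 to 330 in Tet2 WT, mostly Tcf4. Their surface marker Siglech was at 5.73 to 10.3 CPM in Tet2 KO against 5.45 to 9.88 in Tet2 WT, and Klk1 was at 0 in every Tet2 WT library and at most 0.0188 CPM in Tet2 KO. Conventional dendritic cell markers summed to 112 to 130.1 and 80.3 to 92.5 CPM (1 of 8 called higher, 0 lower). T and NK cell markers summed to 3.60 to 5.73 and 5.74 to 6.40 CPM with Ncr1 at 0 throughout, and neutrophil markers to 3.24 to 5.32 and 3.11 to 4.27 CPM; 0 of either list were called. B cell markers summed to 572 to 1000 CPM in Tet2 KO against 460 to 589 in Tet2 WT, with 3 of 5 tested called higher, and monocyte markers to 1568 to 1995 and 1046 to 1505 CPM, with 2 of 8 called higher and 2 lower. Pericyte and smooth muscle markers summed to 34.1 to 63.6 and 128 to 205 CPM, with 2 of 8 called lower. That gap lay mostly in Pdgfrb, at 8.97 to 18.2 CPM in Tet2 KO against 73.3 to 126 in Tet2 WT. Abcc9 was also lower in every Tet2 KO library. The remaining markers of that list overlapped between the genotypes, with Rgs5 at 11.5 to 20.8 CPM in Tet2 KO against 9.39 to 26.6 in Tet2 WT. The part of these cells in the interferon results was not tested.

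**Figure D4:**
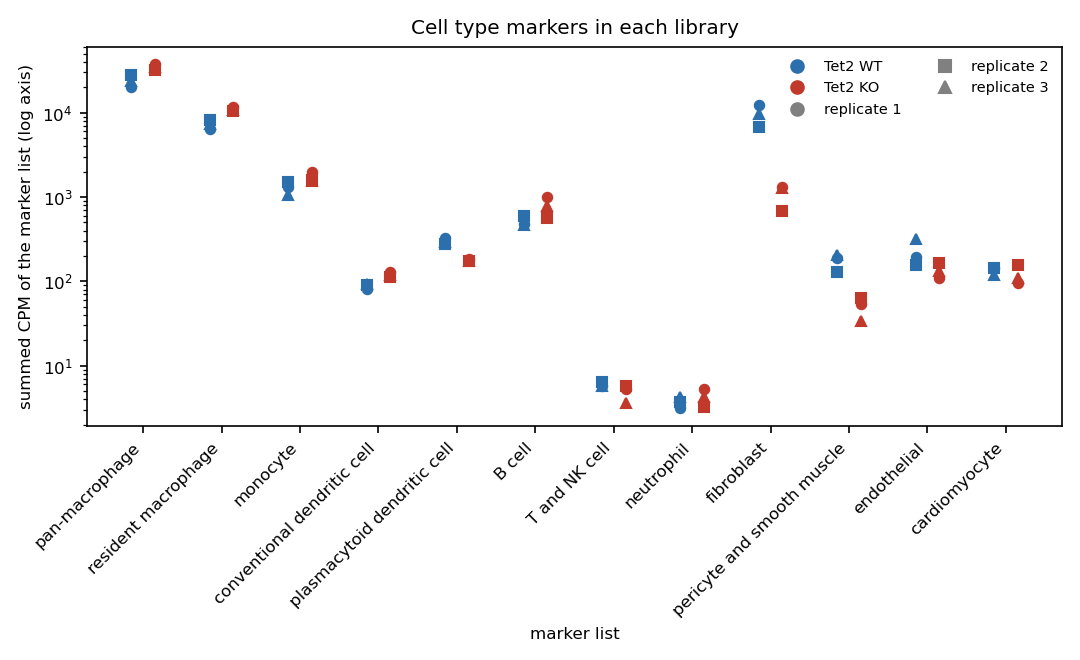
Summed level of each marker list in CPM of the library total (log axis) for each Tet2 WT (blue) and Tet2 KO (red) library, with symbols for the replicate number. Fibroblast markers lie at 6818 to 12270 CPM in Tet2 WT and 690 to 1307 CPM in Tet2 KO, and pan-macrophage markers are higher in every Tet2 KO library.

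Apart from Ifnb1, the interferon ligands themselves were near the limit of detection. Of 18 ligand genes only Ifnb1, which encodes interferon beta, passed the filter: it had 1.84, 1.54 and 4.10 CPM in Tet2 KO against 1.39, 0.521 and 1.20 CPM in Tet2 WT. All knockout libraries were above the wild types, replicate 3 most, but the difference of 1.27 ± 0.53 on the log2 scale was not called (edgeR adjusted p = 0.145). It was 0.70 without Tet2 KO replicate 3 (edgeR adjusted p = 0.521). The 14 interferon alpha genes together had 0, 0 and 8.2 estimated counts in Tet2 KO and 8.3, 12.7 and 8.4 in Tet2 WT. Of them 9 were at 0 in every library, and the highest single value was 6 counts. No difference in these genes was detectable at this depth.

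Several other genes of the pathway were also called higher, and none lower, with TMM scaling. Over the lists of ligands, receptor-proximal signalling, interferon induction and negative regulators, 12 of 37 genes tested were called higher and 0 lower, against 6.11% and 10.1% of all genes. Of the 37, 32 had a positive log2 fold change and 4 a negative one. Every Tet2 KO library was above every Tet2 WT library for 20 of them and below for 1, against 16.4% and 18.1% of all genes. That 1 was the negative regulator Ptpn11 (-0.31 ± 0.14, edgeR adjusted p = 0.192). On the Adgre1 and Csf1r scale 0 were called higher and 11 lower, where 50.0% of all genes were called lower. Among the genes next to the receptor, the interferon gamma receptor chain Ifngr2 rose by 0.52 ± 0.12 (edgeR adjusted p = 0.018; 0.0739 with Tet2 KO replicate 3 left out, 0.0712 with Tet2 WT replicate 1 left out). The receptor kinases Tyk2 and Jak1 had log2 fold changes of 0.43 ± 0.14 and 0.12 ± 0.14 and were not called (edgeR adjusted p = 0.0603 and 0.638). Tyk2 was called without Tet2 WT replicate 3 (edgeR adjusted p = 0.0436) and with DESeq2 (0.0367). Of 16 genes that induce interferon 7 rose, with the cytosolic DNA adaptor Tmem173 (STING) at 0.66 ± 0.12, the transcription factor Irf5 at 0.77 ± 0.15, the Toll-like receptor chaperone Unc93b1 at 0.87 ± 0.17 and the adaptor Myd88 at 0.52 ± 0.11 (edgeR adjusted p = 0.00649, 0.00758, 0.00783 and 0.0125). On limma's log2(TPM + 1) scale Ifngr2 and Myd88 were not called (adjusted p = 0.0854 and 0.0789). The call of Myd88 was also lost without Tet2 KO replicate 3 (0.0569) or Tet2 WT replicate 3 (0.0508). Of 11 negative regulators 3 rose: the phosphatase Ptpn6 by 0.95 ± 0.15, Samhd1 by 0.82 ± 0.14 and Trex1 by 0.72 ± 0.14 (edgeR adjusted p = 0.00252, 0.00425 and 0.00712).

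Which transcripts carried the differences was read from the per-transcript TPM, where kallisto divides shared reads by a model, so these values are descriptions. Irf7-201 took the largest share of Irf7, 36.1% to 50.9% of its TPM. It encodes 457 codons and was at 19.9, 34.0 and 30.0 TPM in the Tet2 KO libraries and 15.3, 11.1 and 11.6 TPM in the Tet2 WT libraries. The retained-intron transcript Irf7-210 was also higher, at 15.4, 17.2 and 9.39 TPM in the Tet2 KO libraries and 4.43, 3.05 and 5.77 TPM in the Tet2 WT libraries, so both forms were above the wild types in every knockout library. Adar can give a long protein from an interferon-responsive start and a shorter one. Its transcript of 1152 codons, Adar-201, was at 11.8, 13.7 and 14.6 TPM in the Tet2 KO libraries and 7.21, 8.63 and 9.23 TPM in the Tet2 WT libraries. Adar-203, of 1178 codons, was at 7.29, 10.5 and 8.82 TPM in the Tet2 KO libraries and 7.16, 7.14 and 7.06 TPM in the Tet2 WT libraries, and Adar-202, of 930 codons, was below 1 TPM in every library. The difference in Adar was thus mostly in Adar-201.

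Oas1g differed mainly outside its coding transcript. Oas1g-201, of 367 codons, was at 5.64, 5.42 and 6.20 TPM in the Tet2 KO libraries and 3.40, 2.58 and 3.22 TPM in the Tet2 WT libraries, while the nonsense-mediated decay transcript Oas1g-203 was at 33.7, 25.4 and 27.3 TPM in the Tet2 KO libraries and 13.1, 9.83 and 15.3 TPM in the Tet2 WT libraries. Every form was higher in the knockout libraries, but the coding one held 9.6% to 14% of the gene's TPM. Most Ifnar2 TPM, 68.1% to 77.7%, went to Ifnar2-203, of 248 codons, with 161, 123 and 140 TPM for Tet2 KO against 142, 125 and 130 TPM for Tet2 WT. Ifnar2-201, the receptor chain of 513 codons, was at 46.4, 44.3 and 42.4 TPM in the Tet2 KO libraries and 33.4, 39.0 and 39.2 TPM in the Tet2 WT libraries. The short form therefore overlapped between the genotypes, and the long form did not.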

How the data were processed

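RNA-seq libraries of sorted cardiac macrophages (3 Tet2 KO, 3 Tet2 WT; groups and replicate numbers from the sample titles) were trimmed with Trim Galore 0.6.4 and quantified against the mouse transcriptome (GRCm38) with kallisto 0.44.0, per the submitters' processing notes. The deposited values, per the file headers, are an estimated count (not normalized) and a TPM for every transcript, beside its full and effective lengths. Of 118783 transcripts 116622 (98.2%) matched GENCODE M21 by identifier without version; the rest held at most 0.671% of a library's counts and were left out. Which annotation the authors used is not stated in these sources.

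Estimated counts were summed per gene and rounded, filtered by edgeR's expression filter (16386 of 35865 genes), and tested across all genes with edgeR 4.0.16's robust quasi-likelihood test in R 4.3.3. The model held genotype alone, p-values were adjusted by Benjamini-Hochberg over every tested gene, and the threshold for a call was 0.05. Standard errors were calculated back from the test, as the absolute log2 fold change over the square root of its F statistic. One fit used TMM scaling, the other scaled each library to the geometric mean of its Adgre1 and Csf1r counts. TPM was summed per gene and not tested. Promoter windows came from RefSeq (GRCm38.p6). Shared sequence was measured as the share of a gene's 31-base transcript words found in another gene's transcripts. The fits were also run on simulated counts with known changes in randomly chosen genes. A shift in cell type markers was not simulated, so those runs do not test the choice of scaling. No libraries of a genotype agreed within sampling noise (chi-square per gene at least 68.7). Alternatives were RLE and upper-quartile scaling, no filter and a stricter filter (1 CPM in 3 libraries), leaving out single libraries, a block for replicate number, length-scaled TPM counts, mitochondrially encoded genes left out, limma 3.58.1 (voom, and log2(TPM + 1) and log2(TPM + 0.1)), DESeq2 1.42.0, and Adgre1 alone, Csf1r alone or the 16 pan-macrophage markers as reference.

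The members and lists were chosen with earlier results of these data known. Named with full values are the receptors, transcription factors and sensors, the 10 effectors and 4 modifiers with the smallest p, those called relative to Adgre1 and Csf1r, up to 4 called genes of each pathway list, and Ifnb1, Tyk2 and Jak1 (1 further gene of the rule is not reported here); the other named members, and the 14 set by Tet2 KO replicate 2, were chosen after their values were seen.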

Additional observations from a re-analysis of the deposited data

How the results depend on the processing

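With TMM scaling, 27 of 43 genes were called, all higher. The number was 14 with limma on log2(TPM + 1) and 14 on log2(TPM + 0.1), and 24 to 33 under the other settings that used all 6 libraries; leaving out 1 library gave 13 to 24. Over all genes 2653 were called, and 1382 to 3141 with 1 library left out; calls were lower for 62.3% of them, 83.4% with limma on log2(TPM + 1) and 82.8% on log2(TPM + 0.1). Signs turned for Ifih1 (-0.006 with length-scaled TPM counts, -0.162 and -0.177 on log2(TPM + 1) and log2(TPM + 0.1), -0.092 to 0.162 with 1 library left out), Slfn5 (-0.013 on both TPM scales, -0.065 to 0.349) and the kinase Jak1 (-0.10 on both). On the Adgre1 and Csf1r scale 2 genes were called, both lower. Without a filter 1 was called higher and 3 lower, and likewise with the stricter filter. Length-scaled TPM counts gave 4 lower, the replicate block 1 lower and the pan-macrophage reference 1 higher. With 1 library left out the number was 0 to 5. Without Tet2 KO replicate 1 the calls were 2 higher and 0 lower, and any calls without another library were lower. Over all genes 4545 to 8669 were called with 1 library left out, in place of 8211. Genes near 0 changed sign: with voom Isg15 was -0.053, Mx2 -0.102 and Rsad2 -0.018; with the replicate block -0.074, -0.12 and -0.03; with the pan-macrophage reference Ifit1 was 0.096, Ifit3b 0.011, Xaf1 0.071 and Trim30a 0.098; with Adgre1 alone Ifit1 was 0.002. With 1 library left out, the ranges were Ifit1 -0.36 to 0.20, Ifit2 -0.50 to 0.58, Ifit3b -0.38 to 0.11, Isg15 -0.54 to 0.35, Mx1 -0.54 to 0.15, Mx2 -0.65 to 0.41, Oasl1 -0.12 to 0.84, Oasl2 -0.041 to 0.36, Rsad2 -0.41 to 0.33, Usp18 -0.14 to 0.23, Cmpk2 -0.55 to 0.05, Xaf1 -0.19 to 0.089, Rtp4 -0.10 to 0.28, Zbp1 -0.16 to 0.44 and Trim30a -0.22 to 0.085. The cause of these changes was not tested.

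Whether replicate numbers pair the libraries was not settled. Deviations of same-numbered libraries correlated at 0.084, 0.195 and 0.10. Those of differently numbered libraries correlated at -0.204 to 0.12. Only 1 of these was above 0, that of Tet2 KO replicate 3 with Tet2 WT replicate 1 (0.12). With the replicate block and TMM scaling 24 genes were called, among them 22 of the 27. Depth of 37349505 to 55771087 estimated counts and 3 libraries per genotype set the precision; the interferon alpha genes and Ifi44l lay at or near the limit of counting.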
